A study of Mus musculus with 22 samples.

Results

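Promoter peaks are the stretches of open chromatin that the authors' deposited annotation places at the transcription start of a gene. All peaks annotated as promoter and nearest to a protein-coding gene were taken, which gave 14744 of 68827 peaks (21.4%), next to 10559 genes. Openness was read by ATAC-seq, where a transposase cuts into accessible DNA, in tagged hepatocyte nuclei pulled from the livers of 22 male HEP-INTACT mice. FPC, a diet with added fructose, palmitate and cholesterol, was fed for 20 weeks and gave 3 advanced and 4 mild libraries, and CDAHFD, a choline-deficient, high-fat diet, was fed for 7 weeks and gave 3 advanced and 4 mild libraries. Each diet had 4 controls fed low fat diet for the same time, called FPC or 20-week controls and CDAHFD or 7-week controls. Liver histology divided the mice on each diet: steatosis and inflammation were present in mild and advanced livers, and marked fibrosis in advanced livers alone. Every mouse carried the nuclear tag, each library came from a different mouse, and p-values measure the spread between mice. Total counts in peaks ranged from 3785066 to 9328963 per library.

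A promoter is where RNA polymerase assembles and starts transcription. Promoters of genes used by every cell usually lie in stretches rich in the CpG dinucleotide and stay free of nucleosomes, whereas promoters of genes particular to a cell type are more often poor in CpG and open together with distal enhancers. In hepatocytes the cell type's own genes include those for plasma proteins, bile acid transporters, cytochrome P450 enzymes and amino acid breakdown. Liver injury is known to raise genes of the biliary and progenitor program, of the cytoskeleton and of YAP signalling in hepatocytes. An open promoter is not a measure of how much RNA a gene makes.

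Among the promoters with the strongest changes, the 150 bases before the annotated start are shown for 4 that opened and 4 that closed in advanced livers on both diets, from RefSeq on GRCm38.p6 (mm10), read 5′ to 3′ along the gene. Capitals mark matches on either strand to 8 short motifs. The TATA box was searched as TATAAA, the CCAAT box by the letters of its name, and the GC box as GGGCGG. The motif of ETS factors was searched as CCGGAAG and that of AP-1 as TGANTCA. The E-box was searched as CACGTG, the TEAD motif as GGAATG and the YY1 motif as ATGGCG. The first 4 opened.
Anxa2, chr9:69453533-69453682, plus strand: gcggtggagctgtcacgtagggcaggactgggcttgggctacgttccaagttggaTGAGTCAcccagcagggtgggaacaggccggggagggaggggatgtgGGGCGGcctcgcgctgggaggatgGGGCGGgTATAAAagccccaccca
Osbpl3, chr6:50456171-50456320, minus strand: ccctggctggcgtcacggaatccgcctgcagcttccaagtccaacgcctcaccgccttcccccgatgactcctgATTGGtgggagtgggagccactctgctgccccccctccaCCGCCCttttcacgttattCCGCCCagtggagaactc
Adamts1, chr16:85803114-85803263, minus strand: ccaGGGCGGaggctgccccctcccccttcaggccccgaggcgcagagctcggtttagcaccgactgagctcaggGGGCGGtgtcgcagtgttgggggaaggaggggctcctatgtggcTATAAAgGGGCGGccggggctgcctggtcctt
Znrf1, chr8:111538193-111538342, plus strand: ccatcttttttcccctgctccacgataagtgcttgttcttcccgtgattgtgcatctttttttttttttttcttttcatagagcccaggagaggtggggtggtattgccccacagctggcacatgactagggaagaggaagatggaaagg
The next 4 closed.
Adgrf1, chr17:43270197-43270346, plus strand: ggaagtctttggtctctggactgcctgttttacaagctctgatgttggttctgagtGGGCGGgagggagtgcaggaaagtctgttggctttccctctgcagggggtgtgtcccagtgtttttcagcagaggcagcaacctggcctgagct
Lifr, chr15:7140392-7140541, plus strand: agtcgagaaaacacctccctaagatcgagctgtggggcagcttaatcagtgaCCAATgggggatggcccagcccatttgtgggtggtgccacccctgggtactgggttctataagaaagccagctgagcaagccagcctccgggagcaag
Insig2, chr1:121332590-121332739, minus strand: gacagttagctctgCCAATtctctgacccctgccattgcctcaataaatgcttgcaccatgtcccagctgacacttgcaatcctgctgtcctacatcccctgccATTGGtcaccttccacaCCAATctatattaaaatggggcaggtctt
Slc29a1, chr17:45593650-45593799, minus strand: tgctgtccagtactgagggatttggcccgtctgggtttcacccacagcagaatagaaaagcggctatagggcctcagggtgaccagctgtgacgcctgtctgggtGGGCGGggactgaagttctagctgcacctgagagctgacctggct
The Anxa2 promoter holds an AP-1 match 95 bases before the start, GC boxes at -48 and -24 and a TATA box at -17. The Adamts1 promoter holds a TATA box at -32 between GC boxes, and Osbpl3 a CCAAT box at -76 with GC boxes nearer the start. Znrf1 has none of the 8 motifs in these 150 bases. Among the closed promoters, Insig2 holds 3 CCAAT matches. The opened promoters hold 8 CpGs at Anxa2, 9 at Osbpl3, 9 at Adamts1 and 2 at Znrf1, and the closed ones 1 at Adgrf1, 3 at Lifr, 0 at Insig2 and 4 at Slc29a1, so the ranges overlap. Matches are descriptions of the letters and not binding sites.

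Most promoter peaks sat just before the start. All were 200 bp wide, their median distance to the nearest start was -58 bp (negative is upstream), and 9155 (62.1%) were centred within 100 bp of it. A single promoter peak was found at 7353 genes, 2 at 2440 and 3 or more at 766, with the most, 8, at Plec. Promoter peaks were stronger than the others, with a median of 19.5 CPM (counts scaled to library size) against 8.38 CPM in the 54083 other peaks. The median SD of log2 CPM among controls was 0.153 at promoters against 0.237 elsewhere at 20 weeks, and 0.135 against 0.229 at 7 weeks. Within 4 classes of equal size by level the gap was smaller: at 20 weeks it was 0.298 against 0.318 in the lowest class and 0.115 against 0.140 in the highest. At 1266 peaks (8.59%) the annotated transcript belongs to another gene than the nearest start, so a promoter shared by neighbouring genes cannot be given to either, and 1986 promoter peaks overlap another peak. All promoter peaks passed edgeR's filter on low counts.

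Promoters took a larger part of all counts in mild and advanced livers than in controls. In FPC livers the promoter share was 34.2% ± 0.672 in controls (SD, n = 4), 36.1% ± 0.757 in mild livers (n = 4) and 38.6% ± 0.507 in advanced livers (n = 3). In CDAHFD livers it was 34.2% ± 0.520 in controls (n = 4), 36.2% ± 0.844 in mild livers (n = 4) and 37.2% ± 1.10 in advanced livers (n = 3). Advanced FPC libraries held 38.2 to 39.1%, mild ones 35.3 to 36.8% and controls 33.4 to 34.8%, so no groups overlapped. Advanced CDAHFD libraries held 36.6 to 38.5%, overlapping the mild range of 35.2 to 37.1%, and controls held 33.4 to 34.5%, below both. The share is a part of a whole: more promoter reads per nucleus and fewer reads elsewhere cannot be told apart by it, and in bulk nuclei neither can more cells with an open promoter and a more open promoter in each cell.

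**Figure D1:**
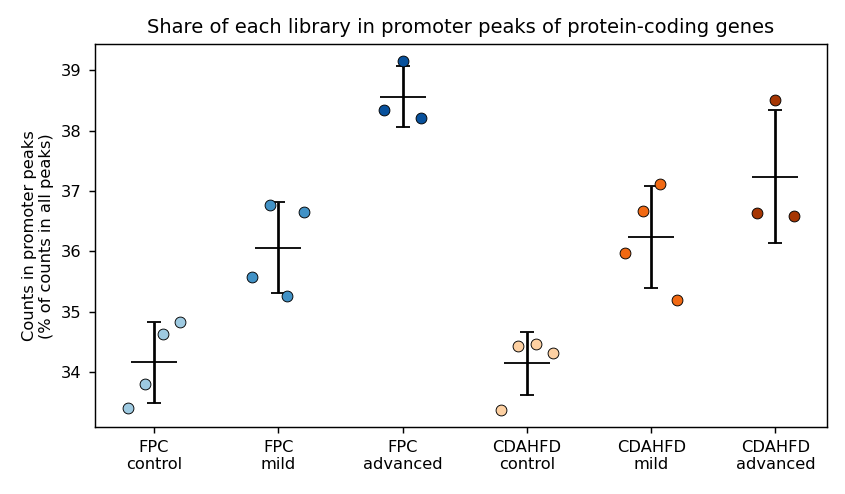
Promoter share of all counts in peaks (percent, y axis) for each library (points), with the group mean and SD, for control, mild and advanced livers of both diets. Every advanced library lies above every control library of its diet: 38.2 to 39.1% against 33.4 to 34.8% on FPC, and 36.6 to 38.5% against 33.4 to 34.5% on CDAHFD.

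In advanced FPC livers far more promoters opened than closed relative to FPC controls. Of 14744 promoter peaks, 6329 (42.9%) rose, against 27.6% of all 68827 peaks, and 1503 (10.2%) fell, against 28.0% of all peaks (edgeR quasi-likelihood test, Benjamini-Hochberg adjusted p under 0.05). Outside promoters 23.4% of peaks rose and 32.9% fell. Most promoter changes were small: 964 promoter peaks (6.54%) rose more than 2-fold, against 11.4% of all peaks, and 172 (1.17%) fell more than 2-fold, against 9.67%. The median log2 fold change was 0.22 at promoters and -0.02 over all peaks.

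This split rests on scaling libraries by all peaks. When libraries were scaled so that promoters on the whole do not move, 3176 promoter peaks rose and 3525 fell, 47.4% of calls were rises instead of 80.8%, and the median of all peaks shifted by -0.21 on the log2 scale. With DESeq2 size factors 82.2% of calls were rises, with cyclic loess 81.8% and with total counts 81.2%. The counts of small rises are therefore statements relative to all peaks.

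In advanced CDAHFD livers the picture against CDAHFD controls was alike in direction, with fewer rises. Promoter peaks that rose numbered 5003 (33.9%), against 26.7% of all peaks, and 1777 (12.1%) fell, against 28.8%. More than 2-fold rises were made by 881 (5.98%), against 12.1% of all peaks, and more than 2-fold falls by 174 (1.18%), against 9.35%. The median log2 fold change was 0.12 at promoters and -0.03 over all peaks. With promoter-based scaling 49.7% of the calls were rises instead of 73.8%, with the median of all peaks shifted by -0.13.

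**Figure D2:**
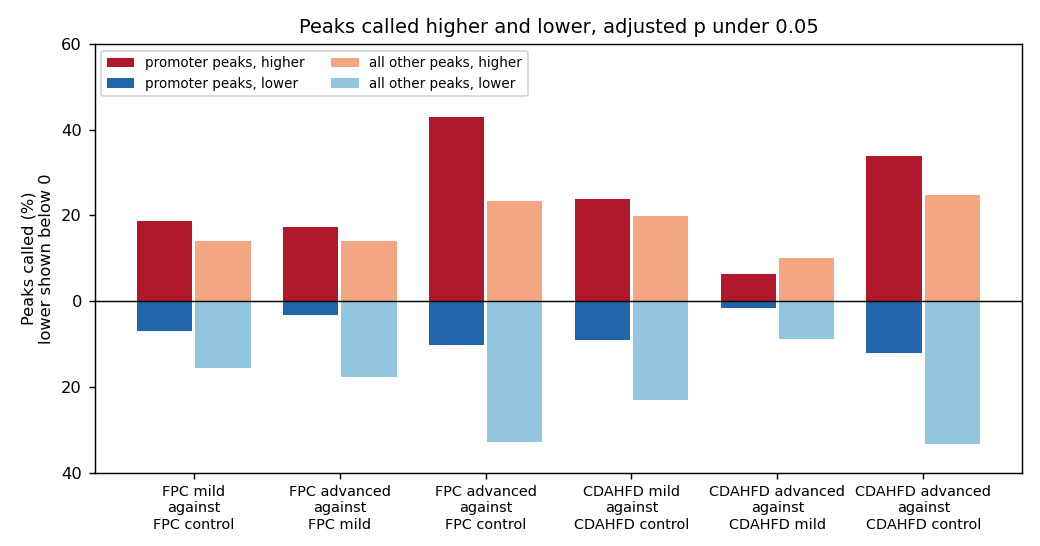
Percent of peaks called higher (up) and lower (down) in each comparison for promoter peaks and for all other peaks (y axis, percent of the peaks in each class). In advanced FPC livers 42.9% of promoter peaks were higher and 10.2% lower, against 23.4% and 32.9% of the other peaks.

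The promoters that opened most in advanced livers belong to genes of varied roles. Named peaks are the largest changes among called promoter peaks with above-median level and no overlap between groups, 1 per gene, 8 in each direction per diet, and their directions held under every scaling tried. The Anxa2 promoter (chr9:69453503-69453703, 80 bp upstream), of a calcium-dependent membrane-binding annexin, had 43.7, 40.02 and 38.2 CPM in advanced FPC livers against 2.18, 2.12, 2.35 and 2.53 CPM in FPC controls. It had 35.9, 44.7 and 34.7 CPM in advanced CDAHFD livers against 1.41, 1.197, 0.950 and 1.70 CPM in CDAHFD controls. Every advanced liver was far above every control, with log2 fold changes of 4.13 ± 0.17 on FPC (SE, adjusted p = 3.1e-15, edgeR) and 4.88 ± 0.17 on CDAHFD (adjusted p = 3.8e-17).

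The Cd63 promoter (chr10:128909687-128909887), of a tetraspanin of late endosomes and exosomes, had 28.7, 37.9 and 31.0 CPM in advanced FPC livers against 1.45, 1.06, 1.68 and 2.02 CPM in FPC controls. In CDAHFD livers it had 24.6, 30.4 and 28.6 CPM when advanced and 1.69, 2.99, 2.14 and 2.04 CPM in controls. The groups stood wide apart, and the log2 fold change was 4.36 ± 0.23 on FPC and 3.64 ± 0.20 on CDAHFD. Osbpl3, an oxysterol-binding protein that works at membrane contacts, averaged 31.1 ± 4.33 CPM in advanced FPC livers and 2.48 ± 0.803 CPM in FPC controls. On CDAHFD its promoter averaged 26.5 ± 4.92 CPM in advanced livers and 1.15 ± 0.374 CPM in controls.

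Plec encodes plectin, which links intermediate filaments to membranes. Its promoter peak at -604 bp averaged 22.2 ± 4.201 CPM in advanced FPC livers and 1.63 ± 0.464 CPM in FPC controls, with log2 fold changes of 3.76 ± 0.23 on FPC and 4.12 ± 0.21 on CDAHFD. Adamts1, a secreted protease that cleaves proteoglycans of the matrix, rose by 3.55 ± 0.18 on FPC and 3.77 ± 0.16 on CDAHFD on the log2 scale. Znrf1, a ubiquitin ligase, rose by 3.58 ± 0.25 on FPC and 3.35 ± 0.22 on CDAHFD. Clcf1, a cytokine of the interleukin-6 family, rose by 3.04 ± 0.22 on FPC and 3.51 ± 0.22 on CDAHFD. Ier5l was named on CDAHFD alone, with a log2 fold change of 3.34 ± 0.22 there and 2.79 ± 0.22 on FPC. The eighth promoter named on FPC is Gramd1b, described below with the diet differences.

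The promoters that closed most also belong to genes of varied roles. Lifr encodes the receptor for leukaemia inhibitory factor, and its promoter (chr15:7140383-7140583) had 1.69, 3.28 and 3.18 CPM in advanced FPC livers against 18.7, 18.3, 23.9 and 24.5 CPM in FPC controls. On CDAHFD it had 3.42, 2.17 and 2.85 CPM in advanced livers against 11.6, 20.9, 14.5 and 12.9 CPM in controls. No advanced liver reached any control, and the log2 fold changes were -2.96 ± 0.33 on FPC (adjusted p = 4.0e-08, edgeR) and -2.37 ± 0.32 on CDAHFD (adjusted p = 5.6e-07). Adgrf1, an adhesion G protein-coupled receptor, averaged 5.75 ± 1.51 CPM in advanced FPC livers and 43.6 ± 11.5 CPM in FPC controls. On CDAHFD it averaged 5.83 ± 2.35 CPM in advanced livers and 38.3 ± 17.1 CPM in controls.

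Elovl3, which lengthens very long-chain fatty acids, had 9.10, 4.27 and 5.73 CPM in advanced FPC livers against 23.3, 20.4, 19.5 and 26.8 CPM in FPC controls. In CDAHFD livers it had 3.85, 6.34 and 2.28 CPM when advanced and 20.3, 20.9, 24.5 and 24.96 CPM in controls. The advanced livers were below all controls on both diets. Slc29a1, a nucleoside transporter, changed by -1.88 ± 0.30 on FPC and -1.91 ± 0.29 on CDAHFD, and Dkk4, a secreted Wnt inhibitor, by -1.70 ± 0.24 on FPC and -1.999 ± 0.24 on CDAHFD (log2). Rbm11, an RNA-binding protein, changed by -1.72 ± 0.16 on FPC and -1.63 ± 0.15 on CDAHFD, and Plcg1, a phospholipase C, by -1.92 ± 0.20 on FPC and -1.27 ± 0.18 on CDAHFD. Ccdc169 was named on FPC alone, at -1.79 ± 0.20.

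Slc30a10, Scd1, Pdk1 and Insig2 were named for advanced against control on CDAHFD alone. Pdk1, a kinase that holds back pyruvate dehydrogenase, averaged 6.47 ± 1.45 CPM in advanced CDAHFD livers and 34.0 ± 4.22 CPM in CDAHFD controls at a peak 758 bp downstream of its start. Its log2 fold change was -2.43 ± 0.15 on CDAHFD and -1.66 ± 0.14 on FPC. Insig2, which retains the SREBP activators in the endoplasmic reticulum, changed by -2.18 ± 0.29 on CDAHFD and -1.63 ± 0.29 on FPC.

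**Figure D3:**
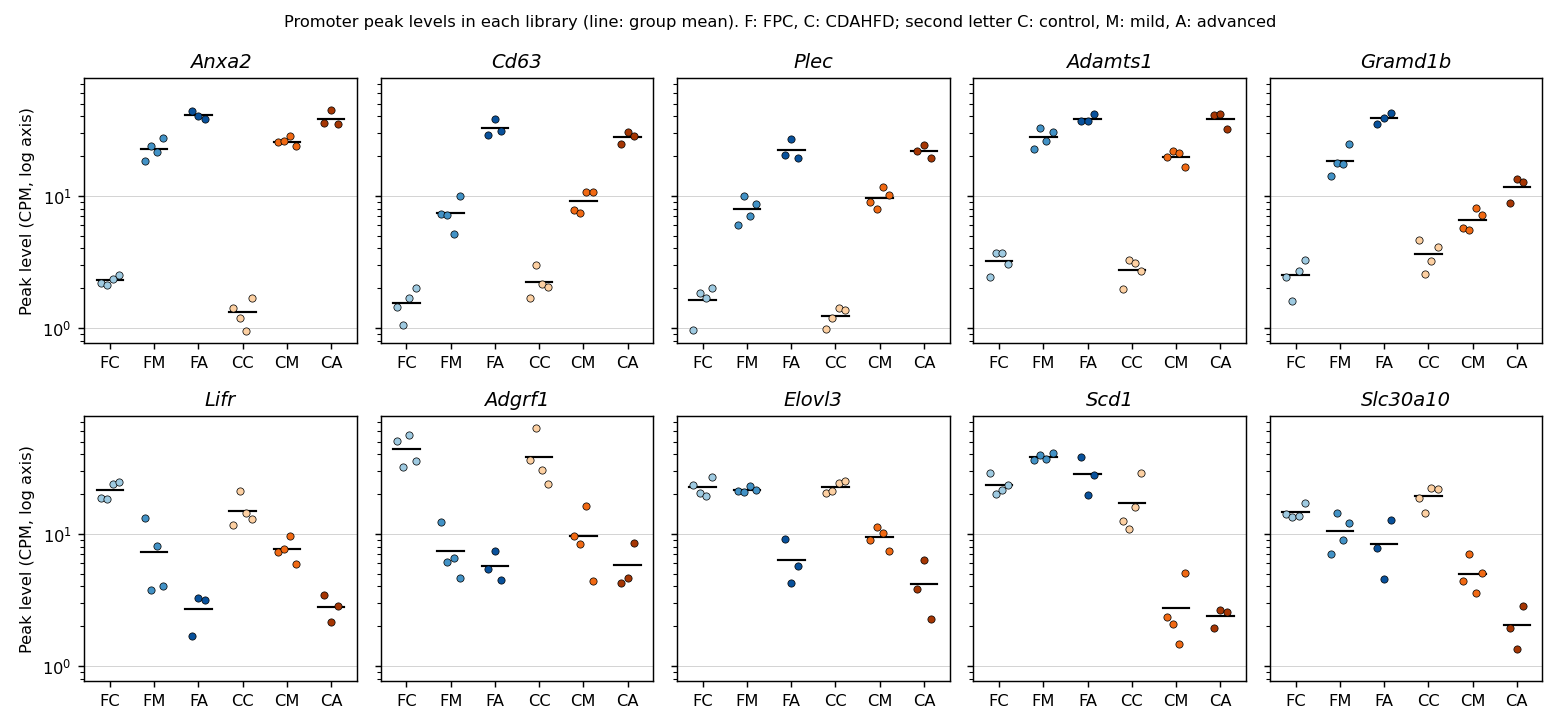
Level of the named promoter peaks (CPM, log axis) in each library, by group, control to advanced within each diet. Anxa2 and Cd63 reach 34.7 CPM or more and 24.6 CPM or more in every advanced library, and Lifr stays at or below 3.42 CPM in every advanced library.

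Mild livers stood between controls and advanced livers at most of these promoters. Of the 964 promoter peaks more than 2-fold higher in advanced FPC livers, the mild mean lay between the control and the advanced mean at 935 (97.0%), with median levels of 3.22 CPM in control, 5.84 CPM in mild and 11.1 CPM in advanced livers. Of the 172 that fell more than 2-fold it lay between at 165 (95.9%), with 12.5, 8.20 and 4.94 CPM in control, mild and advanced livers. On CDAHFD it lay between at 862 of 881 risen peaks (97.8%), with 2.76, 5.80 and 8.68 CPM from control to advanced, and at 166 of 174 fallen peaks (95.4%), with 9.75, 5.82 and 3.83 CPM. These peaks were chosen by the outer pair of groups, so the middle position is a description.

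Mild livers against controls gave fewer promoter calls than advanced livers did. On FPC, 2753 promoter peaks (18.7%) rose, against 15.1% of all peaks, and 1012 (6.86%) fell, against 13.6%. On CDAHFD, 3500 (23.7%) rose, against 20.7% of all peaks, and 1330 (9.02%) fell, against 20.0%. Scaled by promoters alone, 44.6% of the FPC calls were rises instead of 73.1%, and 52.3% of the CDAHFD calls instead of 72.5%. Anxa2 averaged 22.7 ± 3.82 CPM in mild FPC livers and 25.8 ± 1.85 CPM in mild CDAHFD livers (SD, n = 4 each). Adamts1 averaged 28.0 ± 4.57 CPM in mild FPC livers and 3.22 ± 0.616 CPM in FPC controls. Ttc39a, named among the mild FPC rises, had 14.9, 13.6, 10.7 and 12.8 CPM in mild livers against 1.70, 2.12, 3.03 and 3.04 CPM in controls. Among the mild FPC falls, Car14, a carbonic anhydrase, changed by -1.06 ± 0.21 and Asns, asparagine synthetase, by -1.34 ± 0.30 (log2). The F10 promoter peak at -869 bp, of coagulation factor X, changed by -1.23 ± 0.18 in mild FPC livers, and Casd1 by -1.36 ± 0.13 in mild CDAHFD livers.

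Between advanced and mild livers the promoter changes were again mostly rises. On FPC, 2555 promoter peaks (17.3%) were higher in advanced than in mild livers, against 14.7% of all peaks, and 492 (3.34%) lower, against 14.6%. On CDAHFD, 918 (6.23%) were higher, against 9.28% of all peaks, and 246 (1.67%) lower, against 7.26%. Scaled by promoters alone, 49.6% of the FPC calls were rises instead of 83.9%, and 58.4% of the CDAHFD calls instead of 78.9%. The FPC counts were 1402 higher and 211 lower without advanced FPC replicate 2, and the CDAHFD counts 401 higher and 125 lower without advanced CDAHFD replicate 2. Cd63 and Dab2ip, a signalling scaffold for Ras and death receptor pathways, were named as higher on both diets. Dab2ip had 34.1, 37.6 and 34.8 CPM in advanced FPC livers against 7.03, 10.2, 11.2 and 12.0 CPM in mild ones. Its advanced livers all lay above its mild livers, and on CDAHFD it averaged 31.9 ± 4.37 CPM in advanced and 13.3 ± 3.56 CPM in mild livers.

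Further promoters were named for the step from mild to advanced, among them Cdh1, Mt2, Insig2 and Dkk4 on FPC. Tspan15 was named on CDAHFD, and Elovl3 and Lifr on both. Cdh1, encoding E-cadherin, averaged 6.57 ± 1.89 CPM in control, 7.53 ± 1.89 CPM in mild and 24.9 ± 4.08 CPM in advanced FPC livers. Mt2, a metallothionein that binds metals, had 10.8, 30.8 and 14.2 CPM in advanced FPC livers against 3.21, 2.51, 7.06 and 5.17 CPM in mild ones, with no overlap but a wide spread among advanced livers. Tspan15, a tetraspanin, averaged 30.2 ± 2.11 CPM in advanced and 13.3 ± 1.69 CPM in mild CDAHFD livers. On the falling side Elovl3 averaged 22.5 ± 3.29 CPM in control, 21.6 ± 1.05 CPM in mild and 6.37 ± 2.48 CPM in advanced FPC livers, and its mild change of -0.05 ± 0.17 did not pass (adjusted p = 0.85, edgeR). On CDAHFD its mild livers averaged 9.51 ± 1.68 CPM, with a mild change of -1.26 ± 0.18, and the step from mild to advanced was -1.78 ± 0.21 on FPC and -1.21 ± 0.24 on CDAHFD.

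The same promoters often changed on both diets. Of promoter peaks that rose in advanced livers, 4000 rose on both diets, which is 63.2% of those risen on FPC and 80.0% of those risen on CDAHFD; over all peaks the shares are 75.2% and 77.5%. Falls were shared by 990 promoter peaks, 65.9% of those on FPC and 55.7% of those on CDAHFD, against 76.8% and 74.6% over all peaks. More than 2-fold rises on both diets were made by 704 promoter peaks and more than 2-fold falls by 103. Opposite calls were made at 48 promoter peaks, 33 higher on FPC and lower on CDAHFD and 15 the other way. The 704, 103 and 48 peaks were not counted over all peaks, so they cannot be called many or few. In mild livers 1691 rises were shared, 61.4% of those on FPC and 48.3% of those on CDAHFD, against 69.3% and 50.7% over all peaks, and 503 falls, 49.7% and 37.8%, against 62.7% and 42.7%. Apart from the CDAHFD share of advanced rises, each of these promoter shares is below that over all peaks.

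Direct tests of the difference between diets passed at few promoters. The advanced change from control differed between FPC and CDAHFD at 307 promoter peaks (2.08%, against 1.60% of all peaks), 143 relatively higher on FPC and 164 relatively lower. The mild change differed at 307 (2.08%, against 3.47% of all peaks), 96 higher and 211 lower. Leaving out single libraries gave from 152 (without advanced FPC replicate 3) to 328 calls for the advanced change and from 157 (without FPC control replicate 3) to 327 for the mild change.

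Scd1, the main stearoyl-CoA desaturase of the liver, led both differences. At its peak 80 bp downstream of the start it had 38.3, 19.7 and 27.7 CPM in advanced FPC livers against 28.8, 20.2, 21.3 and 23.3 CPM in FPC controls, which overlap. On CDAHFD it had 1.92, 2.67 and 2.56 CPM in advanced livers against 12.4, 10.9, 15.9 and 28.9 CPM in controls, which do not. The advanced change was 3.12 ± 0.43 higher on FPC (log2, adjusted p = 0.00031, edgeR) and the mild change 3.25 ± 0.38 higher. At this peak the controls did not differ (0.47 ± 0.24, adjusted p = 0.32, edgeR). Another Scd1 promoter peak, at -170 bp, was higher in 20-week than in 7-week controls, by 0.80 to 1.14 over the settings tried. Gramd1b, a carrier of cholesterol from the plasma membrane, had 34.7, 38.7 and 42.5 CPM in advanced FPC livers against 2.42, 1.59, 2.69 and 3.29 CPM in FPC controls. It had 8.76, 13.4 and 12.7 CPM in advanced CDAHFD livers against 4.66, 2.54, 3.21 and 4.07 CPM in CDAHFD controls. It rose on both diets, and its advanced change was 2.27 ± 0.34 higher on FPC (adjusted p = 0.00074).

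Slc30a10 exports manganese from the cell. Its promoter averaged 8.35 ± 4.12 CPM in advanced FPC livers and 14.6 ± 1.75 CPM in FPC controls, and 2.03 ± 0.761 CPM in advanced CDAHFD livers and 19.2 ± 3.58 CPM in CDAHFD controls, a difference in change of 2.40 ± 0.42. The peak at Pnpla3, a lipid droplet protein, is annotated to a transcript of the microRNA gene Mir6392. It averaged 40.3 ± 1.22 CPM in advanced FPC livers and 15.7 ± 2.01 CPM in FPC controls, and 28.0 ± 1.80 CPM in advanced CDAHFD livers and 24.5 ± 5.29 CPM in CDAHFD controls, with a difference in change of 1.17 ± 0.18. Kmt2a, a histone methyltransferase, averaged 16.8 ± 1.15 CPM in mild FPC livers and 13.7 ± 3.09 CPM in FPC controls, and 29.7 ± 2.13 CPM in mild CDAHFD livers and 10.9 ± 1.29 CPM in CDAHFD controls. Its difference in the mild change was -1.14 ± 0.17 (adjusted p = 0.00043, edgeR).

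Several differences between diets went with different control levels. Gsta2, a glutathione transferase, had 22.8, 18.03, 17.3 and 17.96 CPM in 20-week controls against 4.24, 5.24, 6.89 and 3.57 CPM in 7-week controls, while advanced livers averaged 14.8 ± 3.30 CPM on FPC and 17.98 ± 1.33 CPM on CDAHFD. Its log2 difference in the advanced change was -2.18 ± 0.24. Cyp3a11, a cytochrome P450 of drug and steroid metabolism, averaged 10.8 ± 3.10 CPM in 20-week and 1.67 ± 0.826 CPM in 7-week controls, and 12.3 ± 1.31 CPM in advanced FPC and 9.88 ± 3.23 CPM in advanced CDAHFD livers. Fam124a rose by 1.78 ± 0.18 on FPC, while the change of 0.28 ± 0.16 on CDAHFD did not pass (adjusted p = 0.14, edgeR), and its control mean was 6.61 ± 1.37 CPM at 20 weeks and 13.5 ± 1.97 CPM at 7 weeks. For these genes the age of the mice and their time on diet cannot be told apart from the diets.

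Between the control groups 553 promoter peaks (3.75%, against 2.71% of all peaks) differed, 434 higher and 119 lower at 20 weeks. Leaving out single control libraries gave 322 (without FPC control replicate 3) to 503. Dmrta1, a DMRT-family gene, had 27.4, 32.9, 19.8 and 19.7 CPM at 20 weeks against 7.06, 6.88, 7.37 and 8.15 CPM at 7 weeks, without overlap (log2 difference 1.75 ± 0.23, adjusted p = 5.4e-05, edgeR). Hist1h2ak, Hist1h2an and Hist1h2bp, genes of near-identical histones, were lower at 20 weeks, and since such copies can share reads their values are uncertain. Hist1h2ak averaged 3.50 ± 1.09 CPM at 20 weeks and 7.51 ± 1.23 CPM at 7 weeks, and its call was lost when any of several single control libraries was left out.

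Groups of genes were compared through their strongest promoter peak. The lists were chosen with earlier results of these data known, so counts over them are descriptions. Over all 10559 genes, 4832 (45.8%) rose and 994 (9.41%) fell in advanced FPC livers, with a median log2 fold change of 0.23, and 3616 (34.2%) rose and 1249 (11.8%) fell in advanced CDAHFD livers, with a median of 0.11. When libraries were scaled by promoters alone, those counts became 2360 up and 2521 down on FPC (median 0.01) and 2409 up and 2596 down on CDAHFD (median -0.02). Counts below are read against these figures, and each list is given under both scalings where the direction of its median depends on the scaling. Genes without a promoter peak are left out of the lists. A promoter nearly closed in controls can hold a peak through the other livers alone, so part of its rise may be built into the choice.

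Many promoters of the hepatocyte's own metabolism and export closed. Of 61 genes for secreted plasma proteins, 28 fell and 3 rose on FPC (median -0.24), and 21 fell and 2 rose on CDAHFD (-0.16). F11, coagulation factor XI, averaged 9.82 ± 2.68 CPM in advanced FPC livers and 23.2 ± 2.68 CPM in FPC controls, and Plg, plasminogen, 27.0 ± 1.74 CPM in advanced FPC livers and 41.8 ± 1.73 CPM in FPC controls. Of 51 genes of the urea cycle and of amino acid and one-carbon metabolism, 26 fell and 1 rose on FPC (-0.24), and 19 fell and 3 rose on CDAHFD (-0.11). Agxt, which detoxifies glyoxylate, averaged 11.6 ± 2.16 CPM in advanced FPC livers and 30.7 ± 2.98 CPM in FPC controls, with log2 fold changes of -1.40 ± 0.16 on FPC and -1.12 ± 0.14 on CDAHFD.

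Of 61 cytochrome P450 and conjugating enzymes, 26 fell and 6 rose on FPC (median -0.21), and 19 fell and 5 rose on CDAHFD (-0.16). Cyp2d9 changed by -0.87 ± 0.15 on FPC and -1.32 ± 0.15 on CDAHFD. Of 27 bile acid genes, 12 fell on each diet, and 1 rose on FPC and 5 on CDAHFD. Slc10a1, the basolateral bile acid importer NTCP, changed by -1.11 ± 0.22 on FPC and -1.33 ± 0.21 on CDAHFD. Abcb11, the canalicular bile salt export pump, changed by -0.93 ± 0.12 on FPC and -0.93 ± 0.12 on CDAHFD, while Abcc4, a basolateral exporter, rose by 2.18 ± 0.27 on FPC and 2.17 ± 0.29 on CDAHFD.

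Of 22 male-biased liver genes none rose and 14 fell on FPC (median -0.49), and none rose and 8 fell on CDAHFD (-0.20). Only 6 of 26 listed female-biased genes had a promoter peak. Of these, 4 rose and none fell on FPC, and 3 rose and 1 fell on CDAHFD. On FPC 2 rose and none fell under cyclic loess, and 2 rose and 1 fell scaled by promoters alone. Hsd3b5, a steroid-metabolising enzyme of male mouse liver, showed the steepest fall of the genes named on either diet. Its promoter had 0.506, 0.285 and 0.318 CPM in advanced FPC livers against 12.6, 11.7, 21.9 and 16.2 CPM in FPC controls. On CDAHFD it had 0.534, 0.167 and 0.569 CPM in advanced livers against 12.1, 25.4, 12.1 and 13.2 CPM in controls. Advanced livers thus held a few reads each, and mild livers averaged 2.15 ± 0.900 CPM on FPC and 1.42 ± 0.894 CPM on CDAHFD. The log2 fold changes were -5.37 ± 0.48 on FPC (adjusted p = 8.8e-10, edgeR) and -5.08 ± 0.44 on CDAHFD (adjusted p = 2.4e-10), and -6.67 on FPC and -6.75 on CDAHFD under cyclic loess.

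Promoters of hepatocyte transcription factors changed in both directions. Of 26, 7 rose and 3 fell on FPC and 9 rose and 4 fell on CDAHFD, with a median of 0.08 on FPC that became -0.14 scaled by promoters alone, and of 0.17 on CDAHFD. Scaled by promoters alone, 2 rose and 7 fell on FPC and 4 rose and 6 fell on CDAHFD. Foxa2, a pioneer factor, changed by -0.59 ± 0.11 on FPC and -0.67 ± 0.10 on CDAHFD. Cebpb averaged 23.8 ± 3.96 CPM in advanced and 15.8 ± 1.42 CPM in control CDAHFD livers, a rise of 0.57 ± 0.12, and 19.2 ± 2.85 CPM in advanced and 18.8 ± 1.39 CPM in control FPC livers. The peak nearest to Foxa3 is annotated to a transcript of Sympk, so it cannot be given to either gene.

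Lipid promoters changed in both directions. Of 25 fatty acid and triglyceride synthesis genes, 11 rose and 5 fell on FPC and 4 rose and 6 fell on CDAHFD, where the median was 0.01, -0.02 with cyclic loess and -0.12 scaled by promoters alone. In FPC livers the median was 0.13, and -0.09 scaled by promoters alone, where 6 rose and 7 fell. Elovl1, a fatty acid elongase, rose by 0.78 ± 0.09 on FPC and 0.91 ± 0.08 on CDAHFD, and Thrsp, a lipogenic nuclear protein, changed by -0.93 ± 0.18 on FPC and -1.82 ± 0.19 on CDAHFD. Of 25 sterol synthesis genes, 3 rose and 6 fell on FPC and 10 rose and 2 fell on CDAHFD, with a median of -0.05 on FPC and of 0.10 on CDAHFD that became -0.03 scaled by promoters alone. Msmo1, a sterol oxidase, changed by -0.28 ± 0.07 on FPC and 0.45 ± 0.06 on CDAHFD. Of these 25, 7 were higher in 20-week than in 7-week controls and none lower, against 345 (3.27%) higher and 104 lower over all 10559 genes.

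Of 33 fatty acid oxidation genes, 9 rose and 2 fell on FPC and 10 rose and 2 fell on CDAHFD, with medians of 0.11 on FPC and 0.04 on CDAHFD that both became negative, -0.10 and -0.09, scaled by promoters alone, where 3 rose and 9 fell on FPC and 6 rose and 9 fell on CDAHFD. Fgf21, a fasting and stress hormone, rose by 1.56 ± 0.15 on FPC and 1.07 ± 0.13 on CDAHFD. Of 30 glucose and fructose genes, 11 rose and 7 fell on FPC and 7 rose and 7 fell on CDAHFD, with medians of 0.07 on FPC and 0.04 on CDAHFD that became -0.15 on FPC and -0.10 on CDAHFD scaled by promoters alone, where 8 rose and 11 fell on FPC and 7 rose and 10 fell on CDAHFD. Hk2, a hexokinase low in normal hepatocytes, rose by 2.78 ± 0.33 on FPC and 2.63 ± 0.37 on CDAHFD, and Pkm, pyruvate kinase M, by 1.36 ± 0.16 on FPC and 1.28 ± 0.16 on CDAHFD.

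Most of the biliary and progenitor promoters with a peak opened. Of 39 listed genes 22 had a promoter peak, and 17 of these rose and none fell on FPC (median 0.84). On CDAHFD 16 rose and 1 fell (0.72). Scaled by promoters alone 15 rose and 1 fell on FPC, and 13 rose and 1 fell on CDAHFD. Sox4, a progenitor transcription factor, had 18.2, 23.9 and 21.8 CPM in advanced FPC livers against 1.70, 2.12, 3.70 and 3.54 CPM in FPC controls, without overlap. Its log2 fold change was 2.90 ± 0.22 on FPC and 2.64 ± 0.20 on CDAHFD. Glis2, a zinc finger factor, rose by 3.18 ± 0.30 on FPC and 2.62 ± 0.30 on CDAHFD, and Cldn4, a tight junction claudin, by 2.92 ± 0.32 on FPC and 3.84 ± 0.36 on CDAHFD. Under cyclic loess scaling Cldn4 had 0.84 on FPC and 1.23 on CDAHFD, and Glis2 had 2.34 on FPC and 1.51 on CDAHFD.

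Cholangiocyte markers overlap this list. Of 15 such markers 9 had a promoter peak, and Krt19, Epcam, Cftr, Tspan8 and Sctr were among those with none in the table. Of the 9, 6 rose and none fell on FPC, and 5 rose and 1 fell on CDAHFD, and their summed level ranged over 120 to 145 CPM in advanced FPC livers against 72.6 to 82.5 CPM in FPC controls. In CDAHFD livers the sum ranged over 102 to 117 CPM when advanced and 68.4 to 78.4 CPM in controls. Their part in the biliary result was not tested. Krt7, a keratin, averaged 7.16 ± 1.203 CPM in advanced FPC livers and 0.849 ± 0.425 CPM in FPC controls, with a log2 fold change of 2.98 ± 0.36 on FPC and 3.33 ± 0.43 on CDAHFD, which under cyclic loess scaling became 0.24 on FPC and -0.08 on CDAHFD.

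Markers of other liver cells had almost no promoter peaks. None of 22 macrophage and none of 21 lymphocyte markers had one, 1 of 20 stellate cell markers (Reln) and 2 of 20 endothelial markers (Tie1 and Bmp2) did. Reln did not pass on either diet, at 0.16 ± 0.21 on FPC and -0.02 ± 0.18 on CDAHFD. Bmp2 rose by 2.09 ± 0.27 on FPC and 2.001 ± 0.26 on CDAHFD, and by 1.32 on FPC and 0.96 on CDAHFD under cyclic loess. Tie1 changed by -0.55 ± 0.19 (adjusted p = 0.016, edgeR) on FPC and -1.49 ± 0.19 (adjusted p = 1.8e-07) on CDAHFD, and its FPC change did not pass under cyclic loess (-0.41) or without advanced FPC replicate 3 (-0.48). Of 16 hepatocyte markers 15 had a promoter peak, including Alb and Hnf4a, and their summed level was 448 to 541 CPM in advanced FPC livers against 525 to 569 CPM in FPC controls, and 501 to 552 CPM in advanced CDAHFD livers against 515 to 576 CPM in CDAHFD controls. On FPC 7 of the 15 fell and 1 rose, and on CDAHFD 2 fell and none rose.

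Many promoters of YAP targets, the cytoskeleton, matrix and inflammation opened on both diets. Of 28 YAP and TEAD genes, 18 rose and 1 fell on FPC (median 0.41) and 17 rose and 3 fell on CDAHFD (0.33). With promoter-based scaling 15 rose and 4 fell on FPC, and 12 rose and 6 fell on CDAHFD. Ctgf, a secreted YAP target, had 13.5, 18.5 and 14.3 CPM in advanced FPC livers against 0.969, 0.795, 1.01 and 1.01 CPM in FPC controls. All advanced livers were above all controls, and it rose by 3.99 ± 0.34 on FPC and 3.78 ± 0.35 on CDAHFD, and by 3.04 on FPC and 2.54 on CDAHFD under cyclic loess. Of 44 cytoskeleton, annexin and S100 genes, 32 rose and none fell on FPC (0.40), and 24 rose and 1 fell on CDAHFD (0.35). These became 22 rises and 5 falls on FPC and 21 and 2 on CDAHFD with promoter-based scaling. S100a11, a calcium-binding protein, rose by 2.89 ± 0.20 on FPC and 3.003 ± 0.19 on CDAHFD, and Tagln2, an actin-binding transgelin, by 3.997 ± 0.36 on FPC and 3.79 ± 0.34 on CDAHFD (3.15 under cyclic loess).

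Of 55 listed matrix and fibrosis genes 26 had a promoter peak. Of these, 19 rose and 2 fell on FPC (median 0.66), and 17 rose and none fell on CDAHFD (0.61). With promoter-based scaling 15 rose and 5 fell on FPC, and 15 rose and 3 fell on CDAHFD. Spp1, osteopontin, had 9.44, 14.8 and 12.1 CPM in advanced FPC livers against 0.485, 0.795, 1.01 and 0.759 CPM in FPC controls. On CDAHFD it had 5.66, 9.35 and 8.82 CPM in advanced livers against 0.282, 0.150, 0.475 and 0.170 CPM in controls. The controls held a few reads each, and advanced and control livers did not overlap. Itgb8, an integrin that activates TGF-beta, rose by 3.81 ± 0.39 on FPC and 4.43 ± 0.41 on CDAHFD, and by 2.18 on FPC and 2.37 on CDAHFD under cyclic loess. Under the same scaling the log2 fold change of Spp1 was 1.98 on FPC and 2.25 on CDAHFD, against 3.92 on FPC and 4.69 on CDAHFD without it. Of 54 inflammation and NF-kB genes, 34 rose and 3 fell on FPC (0.46), and 28 rose and 3 fell on CDAHFD (0.36). With promoter-based scaling 22 rose and 13 fell on FPC (0.25), and 22 rose and 10 fell on CDAHFD (0.22). Nfkb2, an NF-kB subunit, rose by 1.21 ± 0.13 on FPC and 1.14 ± 0.12 on CDAHFD, and H2-K1, an MHC class I chain, by 0.70 ± 0.09 on FPC and 0.88 ± 0.08 on CDAHFD.

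Among 29 genes of the AP-1 and immediate early class, 18 rose and 2 fell on FPC (0.29), and 16 rose and 2 fell on CDAHFD (0.30). With promoter-based scaling 9 rose and 4 fell on FPC, and 13 rose and 2 fell on CDAHFD. Ier3, an immediate early gene, rose by 2.92 ± 0.32 on FPC and 3.45 ± 0.31 on CDAHFD, and Fosl2, an AP-1 subunit, by 1.201 ± 0.10 on FPC and 0.63 ± 0.09 on CDAHFD. Of 28 p53 and DNA damage genes, 12 rose and 2 fell on FPC and 11 rose and 5 fell on CDAHFD, with a median of 0.15 on FPC that became -0.07 scaled by promoters alone and of 0.19 on CDAHFD. The 42.9% that rose on FPC is below the 45.8% over all genes, and scaled by promoters alone 6 rose and 11 fell there. Cdkn1a, the cell cycle inhibitor p21, rose by 2.23 ± 0.22 on FPC and 1.57 ± 0.19 on CDAHFD, and Phlda3, a p53 target, by 2.81 ± 0.29 on FPC and 3.63 ± 0.25 on CDAHFD.

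Most endoplasmic reticulum stress promoters rose on CDAHFD under both scalings, and on FPC when scaled by all peaks. Of 26, 16 rose and 1 fell on FPC (median 0.32) and 20 rose and none fell on CDAHFD (0.58), and 3 passed the test of a relatively lower advanced change on FPC, against 1.22% over all genes. With promoter-based scaling 8 rose and 5 fell on FPC (0.11), and 19 rose and none fell on CDAHFD (0.45). Hspa5, the chaperone BiP, averaged 65.1 ± 0.593 CPM in advanced FPC livers and 51.9 ± 1.36 CPM in FPC controls, and 70.8 ± 1.64 CPM in advanced CDAHFD livers and 42.2 ± 4.18 CPM in CDAHFD controls. Of the 26, 7 were higher in 20-week than in 7-week controls, against 3.27% over all genes. Of 38 NRF2 and antioxidant genes, 18 rose and 4 fell on FPC (0.23), and 21 rose and 1 fell on CDAHFD (0.25). The 47.4% that rose on FPC is close to the 45.8% over all genes, and scaled by promoters alone 10 rose and 10 fell there. Nqo1, a quinone reductase, rose by 1.45 ± 0.19 on FPC and 1.62 ± 0.18 on CDAHFD. Of 20 clock genes, 12 rose and 1 fell on FPC and 10 rose and 2 fell on CDAHFD. With promoter-based scaling 5 clock genes rose and 4 fell on FPC, and 9 rose and 4 fell on CDAHFD. Arntl, the clock activator BMAL1, averaged 59.4 ± 7.14 CPM in advanced CDAHFD livers and 24.1 ± 2.67 CPM in CDAHFD controls, and 52.8 ± 1.82 CPM in advanced FPC livers and 43.9 ± 5.26 CPM in FPC controls. The labels do not give the hours at which livers were taken.

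Respiratory chain and mitochondrial ribosomal genes had shares of risen promoters close to those over all genes on both diets. Zfp genes did so on FPC, while on CDAHFD their share of 30.0% was below the 34.2% over all genes. Cytosolic ribosomal protein and cell cycle genes had larger shares than all genes on both diets. On CDAHFD these were 50.7% for ribosomal protein and 52.6% for cell cycle genes. Proteasome genes had a larger share on FPC, and on CDAHFD their share of 37.1% was only slightly above the 34.2% over all genes. The FPC medians of ribosomal protein and proteasome genes, 0.36 and 0.38, were above those of AP-1 (0.29) and endoplasmic reticulum stress genes (0.32). On CDAHFD their medians, 0.27 and 0.19, were below those of the same AP-1 (0.30) and stress lists (0.58). Of 73 cytosolic ribosomal protein genes, 47 rose and 4 fell on FPC (median 0.36), and 37 rose and 4 fell on CDAHFD (0.27), and of 35 proteasome genes 21 rose and 1 fell on FPC (0.38) and 13 rose and 2 fell on CDAHFD (0.19). Of 57 cell cycle and DNA replication genes, 30 rose on each diet, and 3 fell on FPC and 4 on CDAHFD (medians 0.28 and 0.24). With promoter-based scaling 15 of these 57 rose and 13 fell on FPC, and 19 rose and 9 fell on CDAHFD. Ribosomal protein genes then had 19 rises and 10 falls on FPC and 21 and 9 on CDAHFD. Proteasome genes had 12 rises and 5 falls on FPC and 8 and 4 on CDAHFD under that scaling. Of 71 respiratory chain genes 31 (43.7%) rose and 6 fell on FPC (0.22) and 25 (35.2%) rose and 5 fell on CDAHFD (0.13, and -0.0027 scaled by promoters alone). Scaled by promoters alone, 11 of them rose and 16 fell on FPC and 18 rose and 17 fell on CDAHFD. Of 64 mitochondrial ribosomal genes, 29 (45.3%) rose and 4 fell on FPC (0.24) and 22 (34.4%) rose and 6 fell on CDAHFD (0.09, and -0.05 scaled by promoters alone). Scaled by promoters alone, 11 of them rose and 12 fell on FPC and 11 rose and 14 fell on CDAHFD. Of 260 Zfp genes, which encode zinc finger proteins, 119 (45.8%) rose and 9 fell on FPC (0.23) and 78 (30.0%) rose and 23 fell on CDAHFD (0.09). Scaled by promoters alone, 59 Zfp genes rose and 44 fell on FPC, and 55 rose and 62 fell on CDAHFD, with a median of -0.05. Over all genes 45.8% rose on FPC and 34.2% on CDAHFD. Cdc20, an activator of the anaphase-promoting complex, rose by 1.65 ± 0.17 on FPC and 1.79 ± 0.16 on CDAHFD. Rpl38, a ribosomal protein, rose by 0.92 ± 0.13 on FPC and 0.83 ± 0.13 on CDAHFD, and Psmd3, a proteasome subunit, by 1.23 ± 0.15 on FPC and 0.98 ± 0.15 on CDAHFD.

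**Figure D4:**
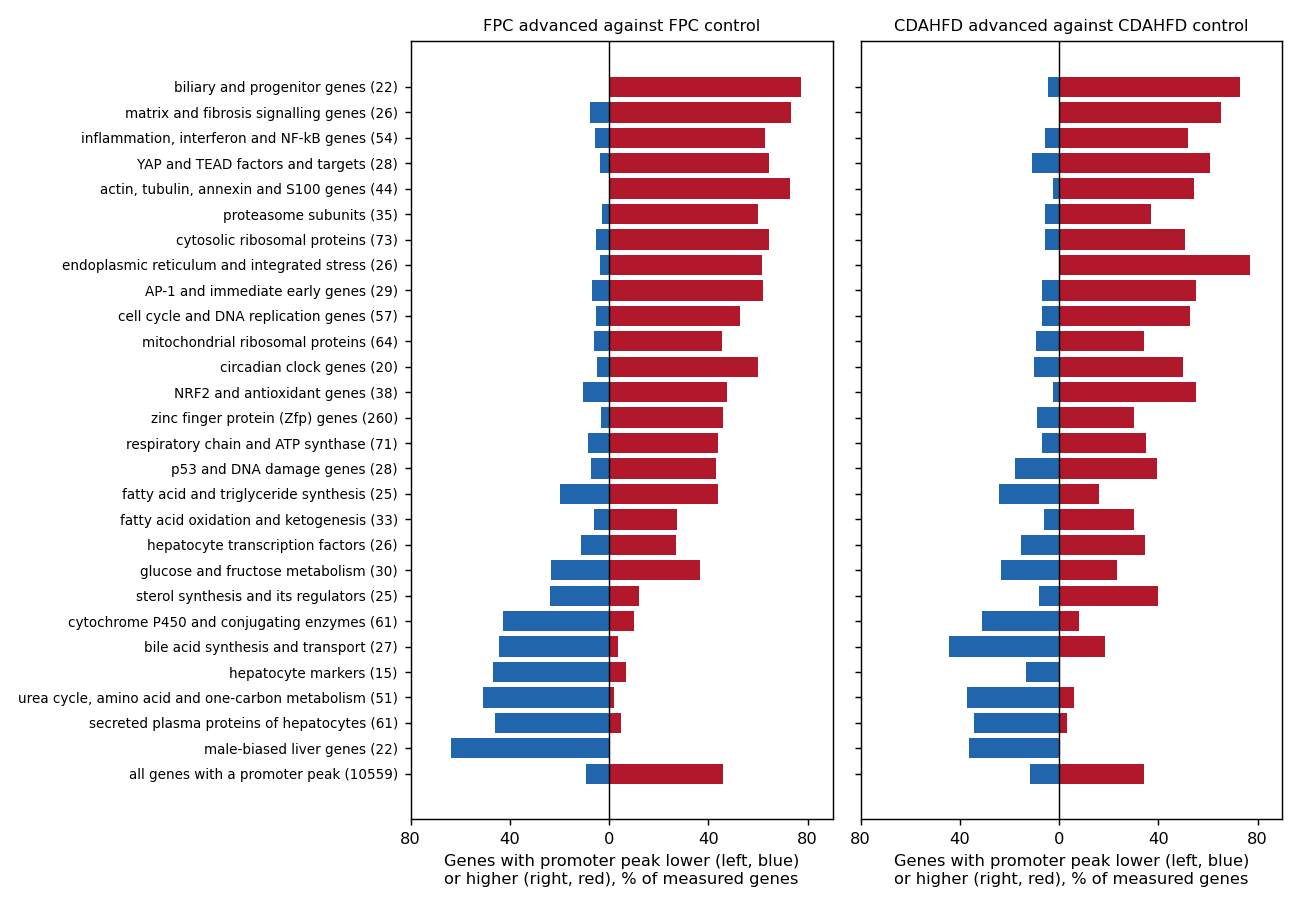
Percent of the measured genes of each list whose strongest promoter peak was called higher or lower in advanced livers (x axis), for both diets, beside all genes with a promoter peak. Biliary and progenitor genes reach 17 of 22 higher on FPC, secreted plasma protein genes 28 of 61 lower, and all genes stand at 45.8% higher and 9.41% lower on FPC.

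Peaks close to the start rose more often than peaks at the edge of the promoter on FPC, and the gap was smaller on CDAHFD. In advanced FPC livers 47.0% of the 7042 peaks centred from -99 bp to the start rose and 7.94% fell, and from -249 to -100 bp 47.4% of 2244 rose and 10.1% fell. From -1000 to -500 bp 30.6% of 1253 rose and 19.5% fell. On CDAHFD the corresponding shares were 33.9% and 10.5%, 40.7% and 11.2%, and 30.7% and 20.1%. From -499 to -250 bp 34.2% rose on FPC and 32.5% on CDAHFD, and from 1 to 100 bp 42.5% on FPC and 32.1% on CDAHFD. Median levels differed too, 21.6 CPM next to the start and 9.93 CPM in the outermost class, and the part of level in these shares was not tested.

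**Figure D5:**
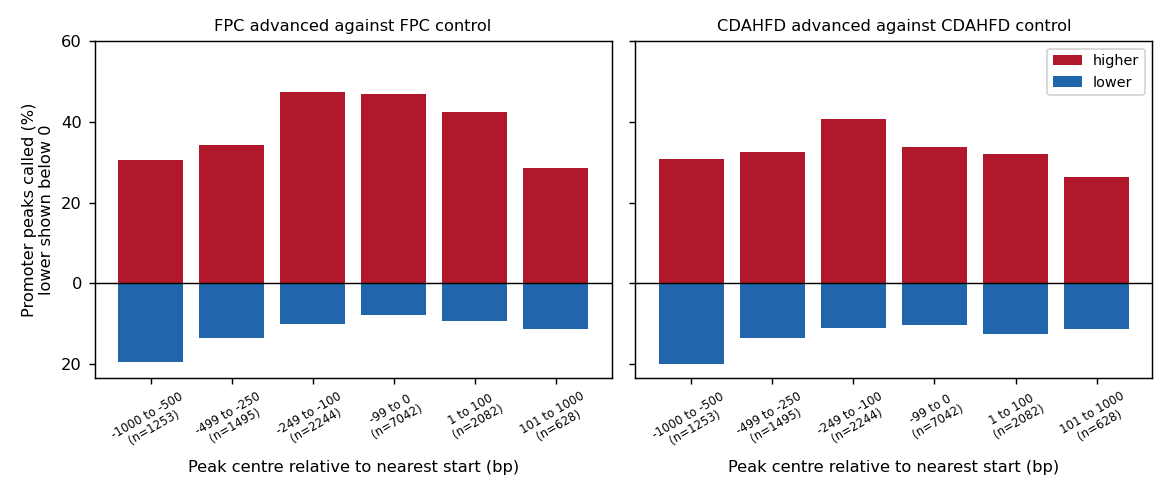
Percent of promoter peaks called higher and lower in advanced livers (y axis) by distance of the peak centre from the transcription start (bp, x axis), for both diets. On FPC the lower share is 7.94% from -99 bp to the start and 19.5% from -1000 to -500 bp.

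The split between promoters and other peaks was present at every level. In each of 4 equal classes of all peaks by mean CPM, promoters rose more often than other peaks in advanced FPC livers: 48.4% against 35.3% in the lowest, 36.5% against 20.1% and 41.0% against 17.98% in the middle ones, and 44.4% against 16.6% in the highest. Falls ran the other way, with 8.43% of promoters against 26.7% of other peaks in the lowest class and 11.1% against 42.3% in the highest. On CDAHFD 34.5% of promoters rose in the highest class, against 16.8% of other peaks.

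CpG-rich promoters rose more often and fell less often than CpG-poor ones. RefSeq windows from 250 bases before to 50 after the start could be matched to 8773 of the 10947 promoter peaks centred there (80.1%). Over all promoter peaks 60.9% had a window, too few for a statement on all of them. Of 6570 peaks with a CpG-rich window (GC of at least 50% and an observed to expected CpG ratio of at least 0.6), 50.4% rose and 5.66% fell in advanced FPC livers, and 36.8% rose and 7.88% fell on CDAHFD. Of 2203 CpG-poor ones, 35.7% rose and 17.8% fell on FPC, and 31.2% rose and 19.1% fell on CDAHFD. The median level was 25.7 CPM in CpG-rich and 16.4 CPM in CpG-poor promoters.

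The letters of strong and slight risers are described without a test. Of 392 peaks with a window that rose more than 2-fold on both diets, 53.6% were CpG-rich, against 83.0% of 2118 that rose on both but up to 2-fold on at least 1 diet and 74.9% of all 8773. Of 37 that fell more than 2-fold on both, 18.9% were CpG-rich, and of 455 slighter falls 45.9%. The AP-1 letters TGANTCA stood in 10.7% of the strong risers, 5.43% of the slight risers and 4.53% of all 8773, and in 6.99% of the 21262 protein-coding RefSeq windows. CCAAT stood in 38.5% of strong and 51.7% of slight risers, against 41.1% of the 8773 and 38.2% of all windows. CCGGAAG stood in 7.91% of strong and 19.4% of slight risers (19.7% of the 8773, 11.6% of all windows), and ATGGCG in 7.14% and 20.0% (16.6% and 10.9%). All motifs were searched on both strands, sites may overlap one another, and windows of the CpG classes differ in base composition, whose part in these shares was not tested.

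Genes with several promoter peaks were counted by the directions of their calls. Of 3206 genes with 2 or more promoter peaks (7391 peaks), 903 had at least 2 risen and none fallen on FPC and 736 on CDAHFD, and 186 and 179 had at least 2 fallen and none risen. Called peaks of both directions occurred at 114 genes on FPC and 136 on CDAHFD, and at 56 on both. Over all promoter peaks 42.9% rose and 10.2% fell on FPC, and 33.9% rose and 12.1% fell on CDAHFD. The counts to be had from these rates alone were not computed, so those found cannot be called many or few. At 55 genes the same pair moved in opposite directions on both diets, 36 of these pairs within 1000 bp and 19 farther apart. By distance to the nearest start, which can differ within a pair, the falling peak was upstream of the rising one in 25 of the 36 close pairs. Promoter peaks far upstream fell more often in general: on FPC 19.5% from -1000 to -500 bp, against 7.94% from -99 bp to the start. The count of 25 is therefore a description.

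Il1rn, the antagonist of the interleukin-1 receptor, is 1 of the 3 genes with the largest difference between called peaks. The peak at 1 of its starts (chr2:24336663-24336863) had 9.10, 12.7 and 10.2 CPM in advanced FPC livers against 0.727, 0.530, 1.18 and 1.01 CPM in FPC controls. On CDAHFD it had 7.05, 8.34 and 7.68 CPM in advanced livers against 0.282, 0.598, 0.475 and 0.509 CPM in controls. All advanced livers were above all controls, with log2 fold changes of 3.55 ± 0.30 on FPC and 3.99 ± 0.31 on CDAHFD, which under cyclic loess were 1.75 on FPC and 1.7 on CDAHFD. The peak 8033 bp away (chr2:24344696-24344896) had 5.56, 7.26 and 5.41 CPM in advanced FPC livers against 15.3, 9.54, 12.8 and 13.4 CPM in FPC controls, a change of -1.06 ± 0.19, and its change on CDAHFD was -0.45 ± 0.17, which did not pass under cyclic loess (-0.34) or without 3 single libraries in turn. Another peak, 30 bp before another start, did not pass on either diet.

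At Fmn1, which encodes the actin nucleator formin 1, the peak at chr2:113440765-113440965 rose by 2.84 ± 0.33 on FPC and 3.39 ± 0.35 on CDAHFD, and by 1.48 on FPC and 1.65 on CDAHFD under cyclic loess. The Fmn1 peak 113187 bp away at chr2:113327578-113327778 changed by -0.58 ± 0.11 on FPC and -0.47 ± 0.10 on CDAHFD. At Znrf1 the peak at the printed start rose, and the peak 2684 bp away changed by -0.61 ± 0.19 on FPC, which did not pass without advanced FPC replicate 1 (-0.47), and by -0.76 ± 0.17 on CDAHFD.

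Promoters were also set against the distal peaks of the same gene, those more than 1000 bp and up to 50000 bp from the same nearest start. For each of 6398 genes with both, the log2 ratio of summed promoter to summed distal counts was compared between groups with limma. In advanced FPC livers the promoter gained on the distal peaks at 2788 genes (43.6%) and lost at 890 (13.9%), with a median difference of 0.28. In advanced CDAHFD livers it gained at 2248 (35.1%) and lost at 1201 (18.8%), with a median of 0.17. The ratio within a gene does not depend on how libraries are scaled. It shows unequal change and not which of both moved.

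The largest ratios were mostly made by the distal side and rest on 1 or 2 distal peaks each. At Foxk2, a forkhead factor, the promoter averaged 39.9 CPM in advanced and 28.3 CPM in control FPC livers and its single distal peak 0.697 CPM and 10.6 CPM, a ratio difference of 3.997 ± 0.35 (SE). At Dnm3, a dynamin, the promoter averaged 37.3 CPM in advanced and 59.4 CPM in control FPC livers and the distal peak 12.7 CPM and 0.628 CPM, a difference of -4.65 ± 0.38 on FPC and -6.02 ± 0.38 on CDAHFD. Krtcap3 was named among the gains on both diets, with differences of 4.31 ± 0.41 on FPC and 4.08 ± 0.41 on CDAHFD: its promoter averaged 10.8 CPM in advanced and 2.31 CPM in control FPC livers, while its distal peak averaged 1.28 CPM and 6.99 CPM. At Sipa1l3 on CDAHFD the promoter carried the change, with 16.3 CPM in advanced and 0.667 CPM in control livers, over distal peaks of 39.5 CPM and 42.5 CPM.

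The ratio was also counted by gene list. Promoters gained at 15 and lost at 3 of 25 respiratory chain genes on FPC and gained at 15 and lost at 2 on CDAHFD, and endoplasmic reticulum stress genes gained at 13 and lost at 1 of 20 on FPC and gained at 15 and lost at 2 on CDAHFD. Of 18 biliary and progenitor genes, whose promoters mostly rose, promoters gained at 5 and lost at 8 on FPC and gained at 4 and lost at 8 on CDAHFD, which is more losses than gains on each diet. For 59 secreted plasma protein genes gains and losses were 16 and 11 on FPC and 12 and 14 on CDAHFD, with medians of 0.04 and -0.01.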

How the data were processed

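ATAC-seq libraries were made from tagged hepatocyte nuclei of 22 mice in 6 groups. The submitters' processing notes name mm10, HOMER, DESeq2, SAMtools and BWA (0.7.5a-r405), with a version for BWA alone. The authors deposited un-normalized values per peak in steps of 0.5 (47.8% of values carry a fraction), which were treated like expected counts and rounded to whole numbers. No label explains the steps. Region types, distances and nearest genes come from annotation columns the authors deposited. The normalized table was not used.

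Promoter peaks, gene lists and comparisons were chosen with earlier results of these data known. All 68827 peaks were tested in R 4.3.3 with edgeR 4.0.16 (TMM factors 0.984 to 1.02, quasi-likelihood model with 6 groups and no intercept, common dispersion 0.0114). Calls have a Benjamini-Hochberg adjusted p under 0.05 over all peaks. An SE was obtained as the size of the log2 fold change over the root of its F statistic and is unreliable where a group holds few reads. CPM values use TMM-scaled totals. Promoter to distal ratios used limma 3.58.1 on log2 values with a prior count of 2.

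Named peaks are the largest changes among called promoter peaks with above-median level and, between 2 groups, no overlap of libraries, 1 per gene: 8 each way for advanced against control, 5 for mild against control and 4 for other comparisons. For differences between diets no overlap could be asked. Up to 4 genes with the smallest p were taken per list, from 33 lists. Per gene with called promoter peaks of both directions the 3 with the largest difference were named, and per ratio test the 4 largest each way. A low filter, other scalings, DESeq2 1.42.0, other definitions of a promoter and leaving out each library were tried. The steps were tested on simulated data first. Labels name no sequencing batch. Some genes that these rules name are not reported here.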

Additional observations from a re-analysis of the deposited data

Results flagged for a closer look

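Each value here belongs to a promoter peak or to the promoter share, and no explanation was tested. A library stood far from the other 3 of its group in 3 of 88 groups of 4, and chance flags about 1 in 20 groups. These were the lowest promoter share among CDAHFD controls, 33.4%, the highest Slc30a10 promoter level among FPC controls, 17.2 CPM, and the lowest Insig2 promoter level in mild FPC livers, 13.5 CPM.

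The change from control differed between diets by a direct test (edgeR interaction, adjusted over all peaks) at further promoters. For advanced livers the log2 change on FPC minus that on CDAHFD was 3.12 at Scd1, 2.40 at Slc30a10, 2.27 at Gramd1b and 1.5 at Fam124a. It was -2.18 at Gsta2, -1.34 at Bhlhe41 (a clock repressor), -1.10 at Ccdc169 and -1.08 at Gtf2h2 (a subunit of transcription factor TFIIH). For mild livers it was 3.25 at Scd1, 2.0 at Gramd1b, 1.47 at Slc30a10 and 1.27 at Insig2. It was -2.47 at Gsta2, -2.06 at Asns, -1.17 at Mpc1 (a mitochondrial pyruvate carrier) and -1.14 at Kmt2a. The calls for the advanced change at Ccdc169 and the mild change at Insig2 were lost when any of several single libraries was left out. Diet and time on diet cannot be told apart in these differences.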

How the results depend on the processing

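No paired analysis was possible because no mouse gave more than 1 library. Scaling by promoter peaks alone moved most counts: advanced against control FPC livers gave 3176 promoter peaks higher and 3525 lower, with 322 more than 2-fold lower, and advanced against control CDAHFD livers 3462 lower. Mild against control gave 1664 higher and 2071 lower on FPC and 2436 lower on CDAHFD. Advanced against mild gave 1226 higher and 1248 lower on FPC and 608 higher and 433 lower on CDAHFD, and the advanced change differed between diets at 488. With peaks of at least 5 CPM only, 633 were more than 2-fold higher on FPC and 112 more than 2-fold lower on CDAHFD, since fewer peaks were counted. With 1 peak per gene, 994 were lower in advanced than in control FPC livers, 308 lower in advanced than in mild FPC livers and 144 on CDAHFD. With promoters defined as all peaks within 1000 bp, those last 2 counts were 758 and 395.

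Leaving out single libraries gave, for advanced against control, 5182 to 6145 higher and 1236 to 1369 lower on FPC, and 4155 to 4897 higher and 1412 to 1724 lower on CDAHFD. For advanced against mild it gave 1402 to 2463 higher and 211 to 465 lower on FPC, and 401 to 1082 higher and 125 to 228 lower on CDAHFD. The CDAHFD counts moved by over 1.5 times without mild replicate 1 (562 higher, 157 lower), mild replicate 4 (606 higher), advanced replicate 1 (138 lower) and advanced replicate 2. The advanced change differed between diets at 152 to 328 promoter peaks, with 172 without FPC control 3, 195 without advanced FPC 1, 184 without CDAHFD control 3, 153 without advanced CDAHFD 3 and 152 without advanced FPC 3. The mild change differed at 157 to 327, with 157 without FPC control 3 and 204 without mild CDAHFD 3. Controls differed at 322 to 503, with 326 without FPC control 1, 322 without FPC control 3 and 323 without CDAHFD control 3. The cause was not tested.

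Among named peaks with a call, 3 changed sign: Acaa1a (-0.02) and Rtn4 (-0.03) in advanced FPC livers scaled by promoters alone, and Krt7 (-0.08) in advanced CDAHFD livers under cyclic loess; 110 values lost and 23 gained a call. Low levels limit small changes to strong peaks.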
